A study of Mus musculus with 4 samples.

Results

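The genes described here are the cytosolic ribosomal protein genes of mouse liver: gene rows whose symbol is Rpl or Rps followed by digits and at most 1 letter, together with Rplp0, Rplp1, Rplp2 and Rpsa. Symbols ending in -ps were left out. Of 33639 gene rows, 82 matched, and 78 of these reached a mean level of 1 CPM over the 4 libraries (CPM are counts scaled to a library total of 1e+06, here with TMM factors that set the typical gene equal between libraries). They comprised 43 large subunit genes, 32 small subunit genes and 3 genes of the P stalk. The symbol rule and the level filter use no measured difference between genotypes, but the set was chosen with earlier results of these data known.

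The study compared livers that lack Cyp27a1, Cyp3a or both with wild-type liver, and sequenced RNA of 1 mouse per genotype. Cyp27a1 encodes a mitochondrial sterol hydroxylase of bile acid synthesis, and the Cyp3a genes encode drug- and sterol-oxidising enzymes of the endoplasmic reticulum. The 4 libraries came from a Cyp27a1 knockout (Cyp27a1 KO), a Cyp3a knockout (Cyp3a KO), a knockout of both (DKO) and a wild type (WT). All 4 mice were male, fed a standard chow and given no treatment, and the knockouts are global, so each deletion is present in every tissue and not in liver alone. The labels give Cyp3a4, the symbol of a human gene, for the other deletion, which is written here as Cyp3a.

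Each cytosolic ribosome is built from ribosomal RNA and a set of proteins that are needed in about equal amounts, so their genes are usually expressed as a coordinated group. Their mRNAs typically start with a C followed by a run of pyrimidines, the terminal oligopyrimidine (TOP) tract, through which mTOR and the RNA-binding protein Larp1 control their translation and stability. In hepatocytes, which export large amounts of plasma protein, these mRNAs are among the most abundant.

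The label was checked against the annotation. In GENCODE release M21, 77 of the 78 rows are protein-coding genes and 1, Rps4l on chromosome 6 from 148354656 to 148355598 (GRCm38, the mm10 build), is a transcribed processed pseudogene with 1 exon. It is a copy of Rps4x, the X-linked gene of a small subunit protein at X, 102184941 to 102189394. The 4 rows that missed the level filter were Rpl10l, Rpl39l, Rpl3l and Rpl6l, none above 0.28 CPM in any library. Just inside the filter stood Rps4l, with 3.67 to 16.5 CPM, so the margin between rows kept and rows left out was wide. Rps3a1, whose symbol ends in a digit after its letter, falls outside the symbol rule although it had 261, 251, 223 and 269 CPM in the Cyp27a1 KO, Cyp3a KO, DKO and WT libraries.

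The promoter windows below show what the genes share in sequence and are given for members at both ends of the DKO against WT comparison. RefSeq held a promoter entry for 57 of the 78 members (build GRCm38.p6), and each window runs 30 bases to either side of the RefSeq start, 5′ to 3′ on the strand of the gene. Capitals mark the longest tract that begins with C, continues with C or T only and is at least 8 bases long. Where a gene had more than 1 entry, the entry with the longest such tract is shown. The windows of Rpl35a (chr16:33056452-33056511, plus strand), Rps10 (chr17:27635215-27635274, minus strand), Rps27 (chr3:90213619-90213678, minus strand) and Rps12 (chr10:23787180-23787239, minus strand) belong to genes that were at least 1.5-fold lower in the DKO and hold such a tract. Those of Rps23 (chr13:90923092-90923151, plus strand) and Rps28 (chr17:33824533-33824592, minus strand) belong to genes that were also at least 1.5-fold lower and lack a tract. Rpl15 (chr14:18270957-18271016, minus strand) and Rpl4 (chr9:64173357-64173416, plus strand) had levels slightly above WT in the DKO and hold a tract.
Rpl35a: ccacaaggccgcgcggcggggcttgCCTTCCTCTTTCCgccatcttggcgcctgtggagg
Rps10: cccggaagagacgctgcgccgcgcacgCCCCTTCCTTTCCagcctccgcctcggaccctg
Rps27: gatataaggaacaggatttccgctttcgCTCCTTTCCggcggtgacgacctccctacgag
Rps12: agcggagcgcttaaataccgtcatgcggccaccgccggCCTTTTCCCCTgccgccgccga
Rps23: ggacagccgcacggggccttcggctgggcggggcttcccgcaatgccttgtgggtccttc
Rps28: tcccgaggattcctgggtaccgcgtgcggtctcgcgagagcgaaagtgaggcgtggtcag
Rpl15: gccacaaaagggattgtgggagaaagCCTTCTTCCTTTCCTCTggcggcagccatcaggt
Rpl4: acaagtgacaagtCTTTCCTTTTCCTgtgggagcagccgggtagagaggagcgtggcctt

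The tract was present in 32 of the 57 members with an entry (56.1%). This compares with 20.6% of all 27025 genes with an entry and 22% of the 8927 of these that passed the level filter. It was searched on the strand of the RNA only. The motif CCGGAAG, a core bound by ETS-family factors, was searched on both strands over the whole entry of 250 bases before to 50 bases after the start. It was found in 24 of 57 members (42.1%), against 9.93% of all genes with an entry and 20.5% of those passing the filter. The TATA motif TATAAA was found in 6 of 57 (10.5%), against 15.7% and 9.28%. Read on the other strand, CCGGAAG starts with pyrimidines, and in 1 member its match overlapped the tract. A gene was counted where any of its entries matched, and a match describes the letters of the window only. Where the RefSeq start and the start used in liver differ, the tract can lie outside the window.

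The folds of members with and without a tract overlapped. In the DKO against WT, the 32 members with a tract had a median log2 fold of -0.36 on counts (range -0.77 to 0.13) and the 25 without one had a median of -0.30 (range -0.67 to 0.09). On the deposited TPM (relative transcript abundances, which divide by transcript length), recentred on the median gene, the order of the medians was the other way round. They were -0.24 with a tract and -0.30 without. Against the Cyp3a KO the DKO medians were -0.32 with a tract and -0.20 without on counts, and -0.20 and -0.155 on recentred TPM. Against the Cyp27a1 KO they were -0.28 and -0.20 on counts and -0.22 and -0.19 on recentred TPM. In the Cyp3a KO against WT the members with a tract had the higher median on both, -0.044 against -0.091 on counts. In the Cyp27a1 KO against WT the order differed between the tables. The differences were not tested.

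Sequencing depth was even, with totals of 49980012, 50378101, 50280651 and 49745860 counts in the Cyp27a1 KO, Cyp3a KO, DKO and WT. The deleted genes followed the labels: Cyp27a1 had 57.6 CPM in the Cyp27a1 KO and 65.3 in the DKO, against 727 in the Cyp3a KO and 746 in WT, and Cyp3a11 had 0.16 and 4.76 CPM in the Cyp3a KO and DKO, against 23706 and 8742 CPM in the Cyp27a1 KO and WT. With 1 library per genotype no difference has a replicate check. No p-value is given, folds compare these 4 livers and not the genotypes, and intervals after a ratio are exact 95% intervals that cover counting error only. A member is said to have risen or fallen only where it passed a fold rule: at least 1.5-fold on log2 of CPM plus 0.5, with an interval of the count ratio that excludes 1.

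The libraries differed in make-up, which sets the scale of every level below. The major urinary protein genes (Mup), abundant liver products, took 3.83%, 7.94%, 0.263% and 8.57% of the counts in the Cyp27a1 KO, Cyp3a KO, DKO and WT. Their share of TPM was larger, at 7.48%, 14.7%, 0.519% and 15.7% in the same order. Alb, the serum albumin gene, took 3.78% and 4.01% of the counts in the single knockouts, 7.08% in the DKO and 6.79% in WT.

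Ribosomal protein mRNAs were among the most abundant of the liver in every library. The median member stood at 415, 376, 378 and 378 TPM in the Cyp27a1 KO, Cyp3a KO, DKO and WT. Its percentile among the genes passing the filter was 97.3, 97.4, 97 and 97.4. Per length the highest member was Rplp1, an acidic protein of the P stalk that recruits the elongation factors, with 1638, 1234, 1345 and 1099 TPM in the Cyp27a1 KO, Cyp3a KO, DKO and WT. Its Cyp27a1 KO value was the highest of any member in any library. Rps2, a small subunit protein at the mRNA entry channel, followed with 962, 930, 1073 and 808 TPM, and its order differed, with the DKO highest. Rpl13a, Rps18, Rps29 and Rpl10 were also among the 8 highest, with single-library values between 558 TPM (Rpl10 in the DKO) and 812 TPM (Rpl13a in the Cyp3a KO).

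**Figure D1:**
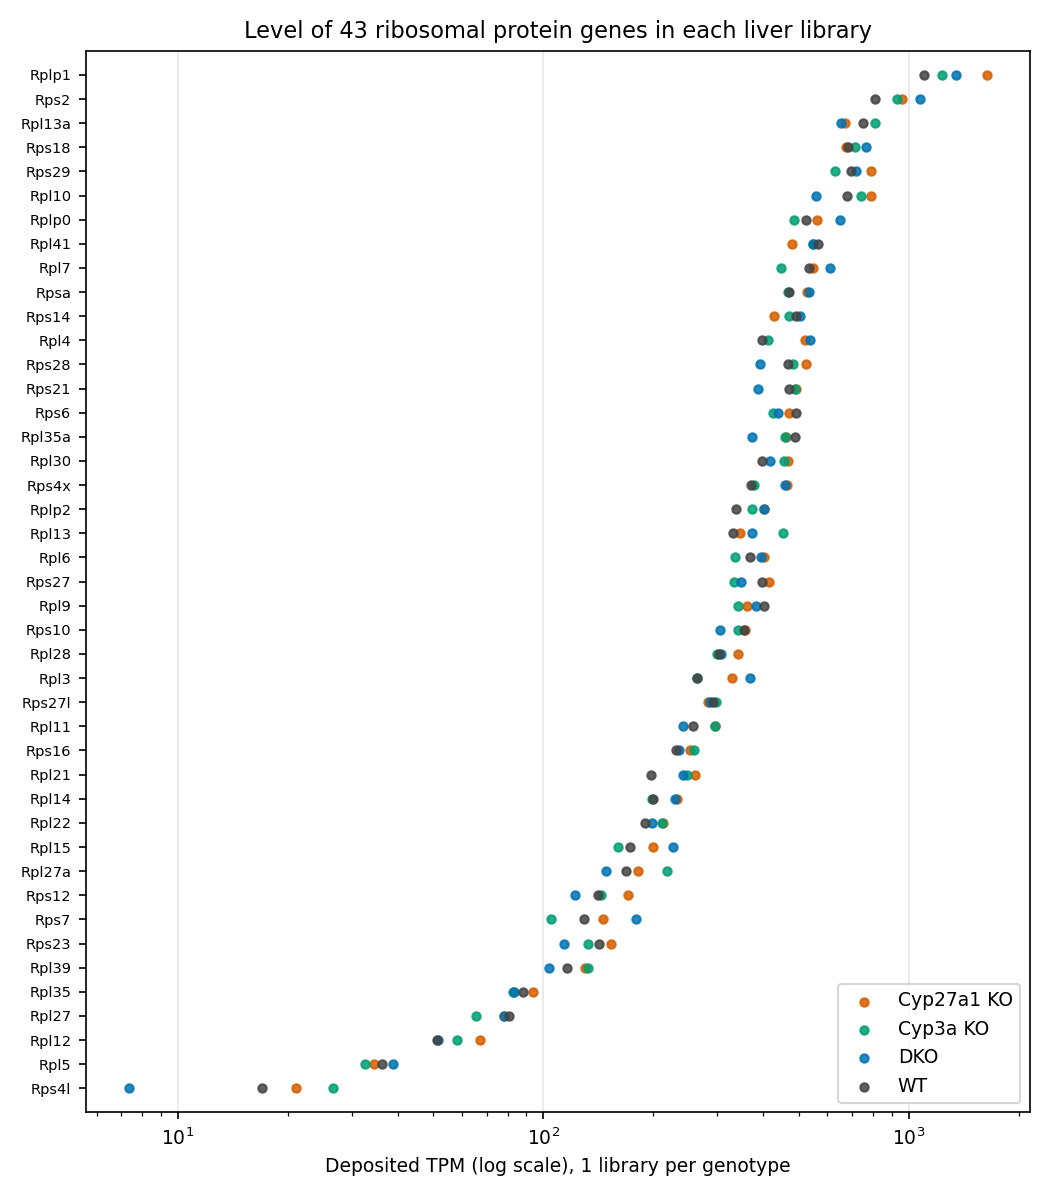
Deposited TPM (log axis) of the 43 ribosomal protein genes named in the text, 1 row per gene in order of mean TPM and 1 point per library, with no error bars since each genotype has 1 library. In most rows the 4 points lie close together, while Rps4l at the foot spans 7.34 TPM in the DKO to 26.6 TPM in the Cyp3a KO.

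The lowest members by counts were Rps4l, Rpl35, Rpl27, Rpl5 and Rpl12. Rpl5, which with Rpl11 and 5S ribosomal RNA forms the particle that binds Mdm2, had 34.5, 32.6, 38.7 and 36.1 TPM in the Cyp27a1 KO, Cyp3a KO, DKO and WT. Of its words, as defined below for near copies, 5.16% occurred in no other gene. Rpl27 stood at 78.2, 65.5, 78.1 and 80.8 TPM, and Rpl35, a protein near the exit tunnel, at 94.0, 82.5, 83.3 and 88.2 TPM. For Rpl27 a near copy held most of the counts, as described further on, and which of them the reads came from was not tested. For Rpl35, 0.983% of the 31-base words of its transcript occurred in no other gene.

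The levels varied little between the libraries. The ratio of the highest to the lowest library had a median of 1.31 over the 78 members in CPM, against 1.40 over all genes passing the filter. In TPM it had a median of 1.22, against 1.53 over all genes. Rps4l, at 4.48 in CPM, was the member with the largest ratio.

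As a share of each library, the members held 1.192% of the counts in the Cyp27a1 KO (95% exact binomial interval 1.189% to 1.195%), 1.148% of those in the Cyp3a KO (1.145% to 1.151%), 1.105% in the DKO (1.102% to 1.108%) and 1.136% in WT (1.133% to 1.139%). By counts the DKO was thus the lowest library. As a share of TPM they held 3.19%, 2.915%, 3.072% and 2.882%, and there WT was the lowest. The tables give opposite orders for the DKO and WT.

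When mitochondrial genes and the 20 genes with the highest mean were taken out of the totals, 29 genes in all, the tables gave the same lowest library. The share of counts was then 1.595%, 1.536%, 1.43% and 1.609% in the Cyp27a1 KO, Cyp3a KO, DKO and WT. The share of TPM was 4.579%, 4.368%, 4.182% and 4.487%. In both the DKO was lowest and the Cyp3a KO next, while the Cyp27a1 KO and WT changed places at the top.

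TMM scaling gave the same lowest library. Summed over the members, the level was 11967, 11549, 10255 and 12117 CPM in the Cyp27a1 KO, Cyp3a KO, DKO and WT. The DKO sum was 0.846 times that of WT (0.843 to 0.849), the Cyp3a KO sum 0.953 times (0.950 to 0.957) and the Cyp27a1 KO sum 0.988 times (0.984 to 0.991). Summed TPM gave 31904, 29147, 30715 and 28815, so that the DKO sum was 1.07 times the WT sum on that table.

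The direction of the DKO difference turned with the table. The median member had a log2 fold of -0.31 in the DKO against WT on TMM-scaled counts and of 0.07 on TPM as deposited. All genes passing the filter had medians of -0.015 and 0.32 on the same scales. Relative to the median gene, the median member was thus lower on both tables, at -0.29 on counts and -0.25 on TPM. On counts, 70 of 78 members lay below WT, beside 51.6% of all genes. On TPM as deposited 28 lay below WT, beside 22.6% of all genes, and on recentred TPM 68 did, beside 50% by construction.

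**Figure D2:**
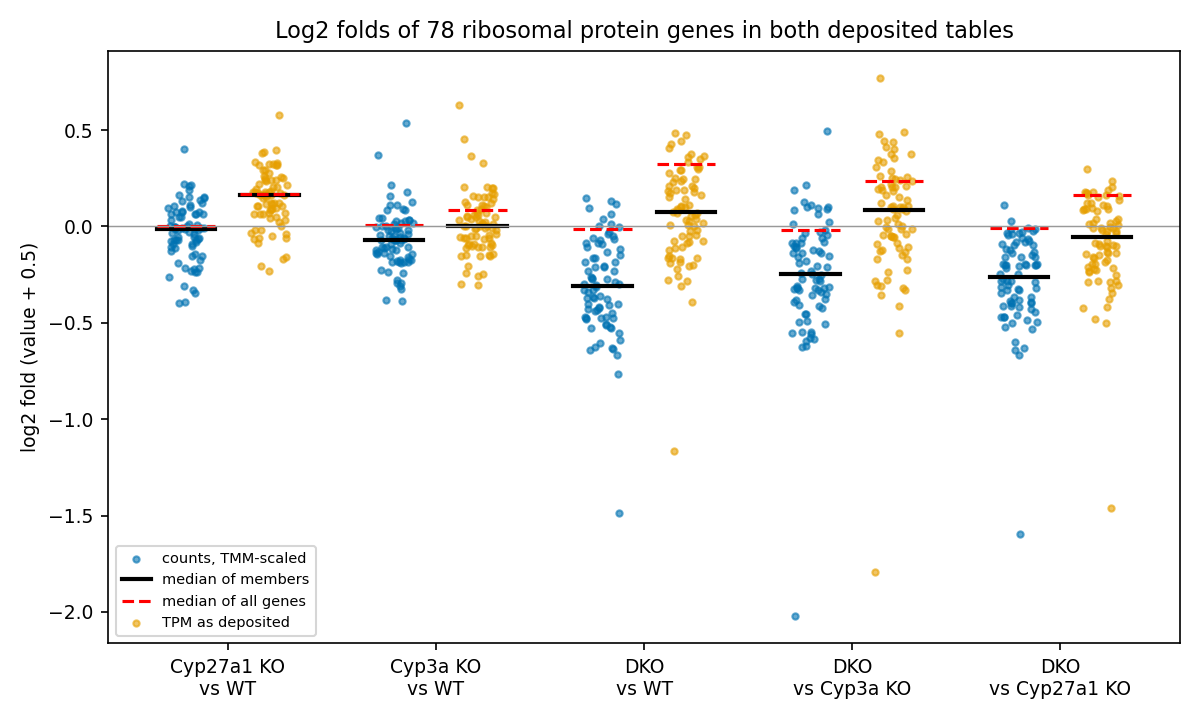
Log2 folds of the 78 members (points) in each of the 5 comparisons, on TMM-scaled counts (blue) and on TPM as deposited (orange), with the median of the members (black line) and of all genes passing the filter (red dashes). In the DKO comparisons the members' median is below the red line on both tables, while the TPM points as a whole sit higher, with a median of 0.07 against WT where counts give -0.31.

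The small subunit genes had a median log2 fold of -0.39 in the DKO against WT on counts, the large subunit genes -0.27 and the P stalk genes -0.09. Of the small subunit genes 29 of 32 lay below WT, of the large subunit genes 38 of 43, and of the P stalk genes 3 of 3. The difference between the classes was not tested.

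By the 1.5-fold rule, 9 of 78 members (11.5%) fell in the DKO relative to WT, beside 10.5% of all genes passing the filter, and 0 rose, beside 13.6% of all genes. The share that fell is near the background. The 9 were Rps4l, Rpl35a, Rps23, Rps21, Rps28, Rps10, Rps27, Rpl10 and Rps12. Only Rps4l passed the 2-fold rule, 1 of 78 beside 4.02% of all genes. By fold alone, on TPM as deposited 1 member, Rps4l, was at least 1.5-fold lower, beside 4.51% of all genes, and on recentred TPM 5 were, beside 10.2%: Rps4l, Rpl35a, Rps23, Rpl10 and Rps21.

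Among the coding members, Rpl35a, a large subunit protein whose gene is mutated in some human patients with Diamond-Blackfan anaemia, had the lowest fold. It had 111, 117, 77.9 and 133 CPM in the Cyp27a1 KO, Cyp3a KO, DKO and WT, so the DKO value was the lowest of the 4 and the 3 others lay close together. The DKO level was 0.587 times that of WT (0.564 to 0.611). In TPM it had 461, 460, 373 and 489, and the DKO was again the lowest.

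Rps23, a protein of the decoding centre, had 66.3, 61.8, 43.6 and 69.5 CPM, and the DKO level was 0.627 times that of WT (0.595 to 0.662). Rps21, a small subunit protein, had 77.9, 81.4, 53.8 and 84.1 CPM, a DKO ratio to WT of 0.639 (0.609 to 0.671). Rps28, another small subunit protein, had 76.4, 73.9, 49.3 and 76.6 CPM, a ratio of 0.643 (0.611 to 0.676). In all of these the DKO library stood alone at the bottom. On TPM they had 114, 388 and 391 in the DKO for Rps23, Rps21 and Rps28, against 142, 471 and 468 in WT, so the lower DKO level did not depend on the table.

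At the upper end of the DKO against WT comparison no member passed the rule. Rpl3, a large subunit protein beside the peptidyl transferase centre, had 272, 232, 269 and 243 CPM in the Cyp27a1 KO, Cyp3a KO, DKO and WT, a DKO ratio to WT of 1.11 (1.08 to 1.14). Rpl15, a core protein of the large subunit, had 120, 107, 122 and 111 CPM, a ratio of 1.10 (1.06 to 1.14). Rpl4, which lines the exit tunnel, had 544, 458, 492 and 469 CPM, a ratio of 1.05 (1.03 to 1.07). By CPM the DKO stood between or beside the other libraries in these genes and not apart from them. In TPM as deposited it was the highest library for each, with 368, 226 and 536 TPM for Rpl3, Rpl15 and Rpl4. On that scale 57.5% of all genes were highest in the DKO.

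Among the P stalk genes, Rplp0, the scaffold of the stalk, had 424, 391, 416 and 443 CPM in the Cyp27a1 KO, Cyp3a KO, DKO and WT, all within a factor of 1.14. Rplp1 had 383, 308, 277 and 290 CPM, and its partner Rplp2 had 124, 119, 91.0 and 118 CPM. Rplp2 was lowest in the DKO by CPM, whereas Rplp1 was highest in the Cyp27a1 KO and similar in the 3 others. Rpsa, a small subunit protein also known as the laminin receptor, had 398, 380, 346 and 399 CPM, lowest in the DKO.

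Against the single knockouts the DKO was lower in much the same way. Relative to the Cyp3a KO the median log2 fold on counts was -0.25, with 65 of 78 members below it beside 52.1% of all genes, and relative to the Cyp27a1 KO it was -0.26, with 76 of 78 below beside 51.2%. On TPM as deposited the medians were 0.09 and -0.055, and on recentred TPM -0.15 and -0.22. The 1.5-fold rule found 5 members that fell relative to the Cyp3a KO, beside 7.43% of all genes, and 5 that fell relative to the Cyp27a1 KO, beside 6.61%. The 5 were Rps4l, Rpl10, Rpl35a, Rpl39 and Rps21 against the Cyp3a KO, and Rps4l, Rpl10, Rps12, Rps23 and Rps28 against the Cyp27a1 KO. None rose in either comparison, beside 9.59% and 7.89% of all genes. On TPM as deposited Rps4l alone was 1.5-fold lower, beside 3.64% and 4.21% of all genes, and 1 member, Rps7, was 1.5-fold higher than in the Cyp3a KO, beside 18.2%. On recentred TPM 4 members were 1.5-fold lower than in the Cyp3a KO, beside 7.23% of all genes, and 3 lower than in the Cyp27a1 KO, beside 6.61%. These comparisons share the DKO library with each other and with the comparison to WT, so they are not separate observations.

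By library, the DKO held the lowest CPM for 62 of 78 members, whereas it was the lowest library for 32.7% of all genes. WT held the highest CPM for 39 members, the Cyp27a1 KO for 26, the Cyp3a KO for 11 and the DKO for 2, whereas 30.2% of all genes were highest in the DKO. In TPM as deposited the DKO was lowest for 19 members, beside 11.8% of all genes, and WT for 29, beside 48.3%.

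In the Cyp27a1 KO the members hardly differed from WT. The median log2 fold was -0.014 on counts, with 47 of 78 members below WT beside 49.9% of all genes. On TPM as deposited it was 0.16, with 13 below beside 28.1% of all genes, and the median of all genes was 0.17. None passed the 1.5-fold rule in either direction, beside 6.89% of all genes that rose and 4.96% that fell.

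The highest and lowest members in that comparison were Rplp1 and Rpl41. Rplp1 had a Cyp27a1 KO ratio to WT of 1.32 (1.29 to 1.35) on counts, and a log2 fold of 0.40 on counts and 0.41 on recentred TPM. Rpl41, which encodes the smallest ribosomal protein, had 99.8, 122, 97.2 and 132 CPM in the Cyp27a1 KO, Cyp3a KO, DKO and WT, a Cyp27a1 KO ratio to WT of 0.758 (0.730 to 0.787). Rps14, a protein of the small subunit platform, followed with 126, 147, 124 and 166 CPM, and the ratio was 0.762 (0.737 to 0.788). By CPM both were low in the Cyp27a1 KO and the DKO and high in WT. In TPM as deposited the DKO had 549 for Rpl41 and 503 for Rps14, against 566 and 492 in WT.

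The other members at the ends of the Cyp27a1 KO against WT comparison were Rpl5, Rpl9 and Rpl13a, with log2 folds of -0.34, -0.33 and -0.31, and Rpl21, Rpl4, Rpl22 and Rpl12, with 0.22, 0.21, 0.21 and 0.19. Rpl13a, known in human cells also from a complex that silences translation after interferon, had 210, 259, 177 and 260 CPM in the Cyp27a1 KO, Cyp3a KO, DKO and WT. Its values fell into a lower pair, the Cyp27a1 KO and the DKO, and a higher pair, the Cyp3a KO and WT.

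In the Cyp3a KO the members were slightly lower than in WT. The median log2 fold was -0.068 on counts, with 56 of 78 members below WT beside 49.1% of all genes. It was 0.004 on TPM as deposited, with 36 below beside 39.3%, and -0.081 on recentred TPM, with 55 below. None passed the 1.5-fold rule in either direction on counts, beside 7.38% of all genes that rose and 5.66% that fell. On TPM as deposited Rps4l was 1.5-fold higher, beside 9.53% of all genes.

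The members at the ends were Rps4l, at a log2 fold of 0.54, Rpl13 at 0.37 and Rpl21 at 0.21, and at the lower end Rpl27 at -0.39, Rps7 at -0.38, Rpl9 at -0.33, Rps27 at -0.31 and Rpl5 at -0.29. Rpl13 had 157, 219, 149 and 169 CPM in the Cyp27a1 KO, Cyp3a KO, DKO and WT, with the Cyp3a KO alone above the others. Rps7, a small subunit protein, had 86.8, 66.3, 93.8 and 86.5 CPM, with the Cyp3a KO alone below the others. Rpl27 had 26.4, 23.4, 23.0 and 30.8 CPM. For Rpl13, Rps7 and Rpl27 these values changed when near copies were counted with the gene.

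Near copies matter because ribosomal protein genes have many processed pseudogenes, and a read from a shared stretch can be given to the gene or to its copy. Of the 31-base words in a member's transcript, a median of 45.7% occurred in no other gene, with a range of 0.983% to 97.5%. For 34 of the 78 members at least 1 other gene shared at least 50% of those words. The 97 such copies present in the tables held counts equal to 6.70%, 6.29%, 7.70% and 6.22% of the members' counts in the Cyp27a1 KO, Cyp3a KO, DKO and WT. The rule asks only for shared words, on either strand, so a near copy need not be a pseudogene. Among them are Uimc1, which shared 54.1% of the words of Rpl29, and Wdr38, which shared 61.9% of those of Rpl35. Their counts are part of these totals and of the sums of gene and copies. Genes just under the cut were not added, such as Gm10275, with 49.8% of the words of Rpl12, and Gm15500, with 49% of those of Rpl5. The rule for adding copies was chosen after the values were seen.

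Rpl10, which joins the large subunit late in its maturation, shows how much this can alter a gene. Its own row had 347, 344, 223 and 339 CPM in the Cyp27a1 KO, Cyp3a KO, DKO and WT, a DKO ratio to WT of 0.656 (0.641 to 0.672). Its copies, led by Rpl10-ps3, had 105, 75.7, 180 and 107 CPM, highest where the gene was lowest. Gene and copies together had 452, 420, 402 and 446 CPM, and the log2 fold of the DKO against WT was -0.15 in place of -0.61.

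Rps7 and its copy Gm6472 moved in opposite directions in the same manner. The copy had 91.6, 96.4, 58.0 and 84.9 CPM in the Cyp27a1 KO, Cyp3a KO, DKO and WT. Together they had 178, 163, 152 and 171 CPM, so that the sum was lowest in the DKO although the gene's own row was highest there. The DKO against WT log2 fold was -0.18 for the sum and 0.12 for the row, and the Cyp3a KO against WT fold was -0.075 for the sum and -0.38 for the row.

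For Rpl13, copies led by Gm12918 had 55.4, 6.99, 51.8 and 41.9 CPM in the Cyp27a1 KO, Cyp3a KO, DKO and WT, and the sums of 213, 226, 201 and 211 CPM brought the Cyp3a KO log2 fold to 0.096. For Rpl27 the gene's row held 24.0% of the counts of gene and copies, and the Cyp3a KO fold was -0.06 for the sum. For Rps12 the row held 35.1%, and its DKO against WT fold was -0.34 for the sum and -0.59 for the row, so it no longer passed the 1.5-fold rule. With copies added to every member, the medians in the comparisons with WT were -0.014 for the Cyp27a1 KO, -0.061 for the Cyp3a KO and -0.29 for the DKO. Members that fell by the 1.5-fold rule in the DKO against WT then numbered 7, without Rpl10 and Rps12, beside 10.5% of all genes counted on their own rows. Of all rows whose symbol ends in -ps after a member-like name, 278 in number, 21 passed the level filter, with a median log2 fold of -0.009 in the DKO against WT.

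**Figure D3:**
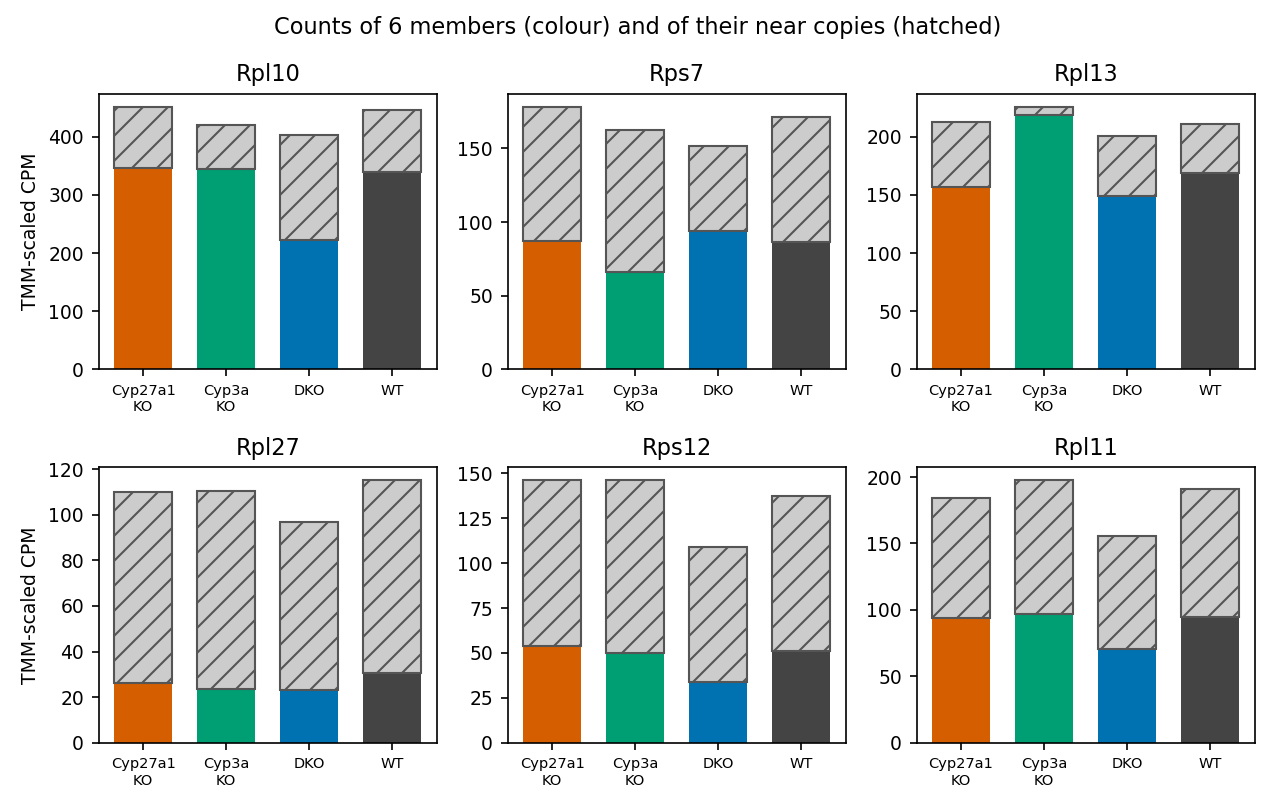
TMM-scaled CPM of 6 members (coloured bars) with the counts of their near copies stacked on top (hatched), 1 bar per library and no error bars. For Rpl10 and Rps7 the coloured and hatched parts move in opposite directions, so the full bars differ less between libraries (402 to 452 CPM for Rpl10) than the coloured parts (223 to 347 CPM).

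Rps4l differed most of all rows. It had 604, 824, 199 and 521 reads, or 12.1, 16.5, 3.67 and 11.2 CPM, in the Cyp27a1 KO, Cyp3a KO, DKO and WT. The DKO level was 3.04-fold lower than that of WT (2.58 to 3.60), 4.48-fold lower than that of the Cyp3a KO (3.83 to 5.26) and 3.30-fold lower than that of the Cyp27a1 KO (2.81 to 3.89). It was the only member past the 2-fold rule against the Cyp3a KO, beside 2.70% of all genes, and against the Cyp27a1 KO, beside 2.59%. The Cyp3a KO level was 1.47 times that of WT (1.32 to 1.65). In TPM it had 21.0, 26.6, 7.34 and 17.0, the same order.

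The parent gene Rps4x showed none of this. It had 281, 243, 245 and 253 CPM in the Cyp27a1 KO, Cyp3a KO, DKO and WT, and the DKO ratio to WT was 0.967 (0.943 to 0.991). The copy is divergent enough to be told apart by reads: 74.0% of its 31-base words occur in no other gene, and it matched the coding sequence of Rps4x at 634 of 794 aligned positions (79.8%), with 13 gap bases. The aligned stretch of 60 bases below was picked as the one without gaps that has the most differences, so it differs more than the whole alignment. It runs from coding bases 61 to 120 of Rps4x and bases 115 to 174 of the Rps4l transcript. It has 19 differences, shown as capitals in both.
Rps4x: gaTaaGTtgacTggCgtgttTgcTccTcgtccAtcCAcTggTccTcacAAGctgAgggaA
Rps4l: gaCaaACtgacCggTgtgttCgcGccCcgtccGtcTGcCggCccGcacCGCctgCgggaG

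**Figure D4:**
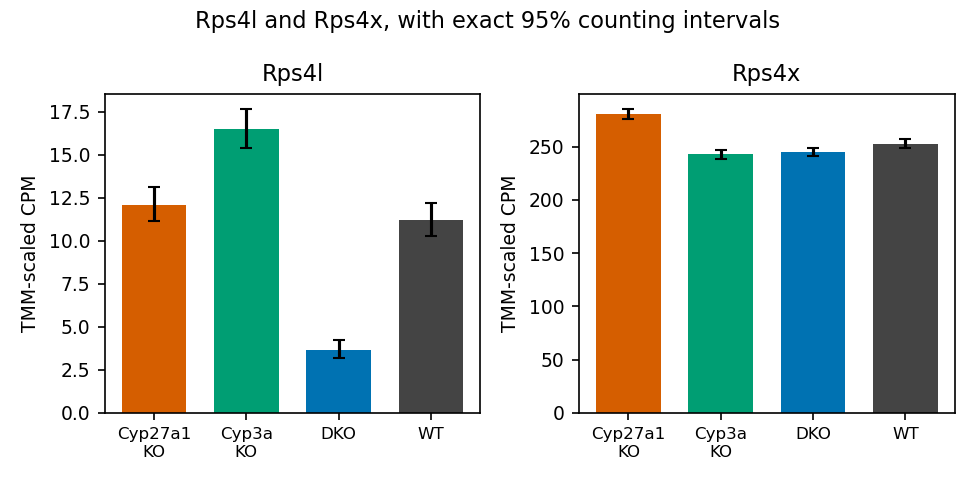
TMM-scaled CPM of Rps4l and of its parent gene Rps4x in the 4 libraries, with exact 95% Poisson intervals that cover counting error only. Rps4l stands at 3.67 CPM in the DKO and 11.2 to 16.5 CPM in the other libraries, while Rps4x lies between 243 and 281 CPM.

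A further pair of related members are Rps27 and Rps27l, which encode near-identical small subunit proteins. Rps27 had 57.4, 51.5, 41.3 and 63.8 CPM in the Cyp27a1 KO, Cyp3a KO, DKO and WT, and Rps27l, known as a p53-induced gene, had 67.3, 75.6, 60.4 and 78.2 CPM. By CPM both were lowest in the DKO and highest in WT. Per length, Rps27 stood higher in every library, at 414, 333, 347 and 396 TPM, against 283, 298, 287 and 291 TPM for Rps27l. In TPM neither was lowest in the DKO or highest in WT. Another gene, Rps27rt, shares 98.7% of the words of Rps27 and had 23.2, 28.2, 17.9 and 27.2 CPM, so reads of Rps27 and Rps27rt are hard to tell apart.

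Counts and TPM were next compared gene by gene. The log2 fold on counts minus that on TPM had a median over the members of -0.18 in the Cyp27a1 KO against WT, -0.086 in the Cyp3a KO against WT and -0.36 in the DKO against WT. All genes passing the filter had medians of -0.17, -0.083 and -0.35. The gap between the tables was therefore a shift common to nearly all genes: after both tables were centred on their median gene, the members' median gap was -0.005, -0.003 and -0.016. The Mup share of TPM, given above, was also lowest in the DKO, and its part in the shift was not tested.

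What remains after centring is the gap of single genes. It follows from counts per TPM, in effect the transcript length assigned to a gene, which can differ between libraries. The ratio of the highest to the lowest library in counts per TPM reached at least 1.1 in 9 of 78 members (11.5%), beside 40.3% of all genes. Its median was 1.02 over the members and 1.07 over all genes. 

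Rpl22, an RNA-binding protein of the large subunit with a paralog, Rpl22l1, had the largest gap. It had 76.7, 75.0, 70.7 and 66.2 CPM in the Cyp27a1 KO, Cyp3a KO, DKO and WT, with the DKO above WT, and 213, 211, 199 and 190 TPM. Relative to the median gene its DKO against WT fold was 0.37 higher on the log2 scale by counts than by TPM, and on recentred TPM it was -0.25. Its direction in the DKO therefore depended on the table even after centring. In the Cyp27a1 KO against WT the gap was 0.22.

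Rplp2 had the largest gap of the other sign in the DKO against WT, -0.28. By counts the DKO level was 0.769 times that of WT (0.740 to 0.799), whereas on TPM the values of 401 in the DKO and 338 in WT gave a recentred fold of -0.077. Rpl5, Rpl14 and Rps16 had gaps of -0.19, -0.17 and -0.15, and Rpl27a had one of 0.17. In the Cyp3a KO against WT the largest gaps were 0.25 for Rpl28, -0.20 for Rpl27a and 0.14 for Rpl15, followed by Rpl22, Rpl6 and Rpl30 at 0.11, 0.10 and -0.095. In the Cyp27a1 KO against WT, Rpl5, Rpl28, Rpl15, Rpl7 and Rpl14 had -0.11, 0.091, 0.072, 0.071 and -0.057.

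The fold of the DKO against WT varied with the length of the coding sequence among the members. Over the 77 coding members the log2 fold on counts and the log2 coding length had a Pearson r of 0.33 and a Spearman rho of 0.27, against 0.025 and 0.022 over 11184 other coding genes. Over the 78 mitochondrial ribosomal protein genes r was 0.18 and rho 0.16, near the value of the members up to 800 nt given below. The genes are points of the same pair of libraries, so no p-value applies. Relative to the median gene, the 9 members with up to 300 nt had a median of -0.42, the 16 above 300 and up to 400 nt had -0.32, the 30 up to 600 nt had -0.28, the 14 up to 800 nt had -0.35 and the 8 longer ones had -0.11. Over the 69 members up to 800 nt, r was 0.20, so part of the relation rests on the 8 longest.

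**Figure D5:**
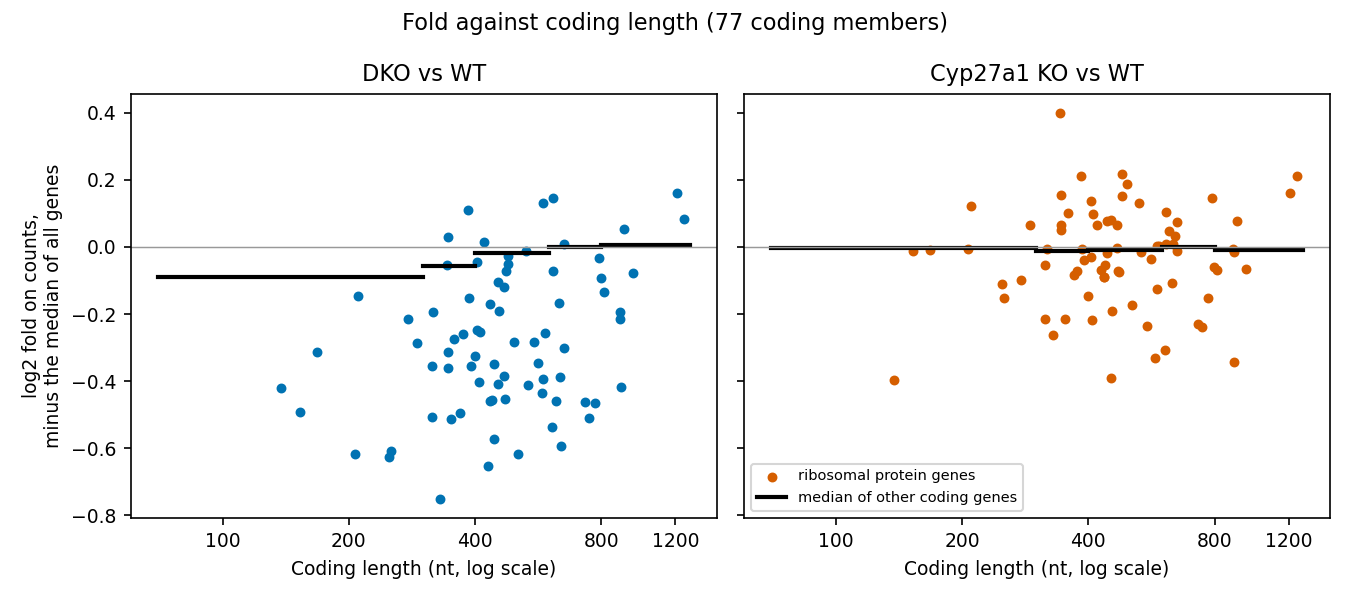
Log2 fold on counts, minus the median of all genes, against coding length (log axis) for the 77 coding members (points), in the DKO against WT and in the Cyp27a1 KO against WT, with the median of other coding genes in 5 length ranges (black bars). In the DKO panel the points of short genes lie lowest, with medians of -0.42 up to 300 nt and -0.11 above 800 nt, while r is 0.073 in the Cyp27a1 KO panel.

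Other short genes showed a smaller shift in the same comparison. The 208 other coding genes with up to 300 nt had a median of -0.089 relative to the median gene, and the 311 above 300 and up to 400 nt had -0.056. In the Cyp27a1 KO against WT, r over the members was 0.073, and in the Cyp3a KO against WT it was -0.12. On recentred TPM, r over the members in the DKO against WT was 0.34. RNA integrity values were not used here, and the part of RNA quality in this relation was not tested.

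Loss of each gene can be read in a pair of comparisons that have no library in common. For loss of Cyp27a1, the Cyp27a1 KO against WT and the DKO against the Cyp3a KO had member medians of -0.014 and -0.25 on counts. Of the 78 members 44 (56.4%) were lower in both, 10 (12.8%) higher in both and 24 (30.8%) opposite, beside 31.2%, 29.1% and 39.6% of all genes. With TPM as deposited, 5 (6.41%) were lower in both and 38 (48.7%) higher in both, beside 10.8% and 57.3% of all genes. On recentred TPM 34 (43.6%) were lower and 11 (14.1%) higher in both, beside 29.7% of all genes each way. On counts Pearson's r over the members was 0.12, and 0.26 without Rps4l, as a description over genes that share their libraries.

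For loss of Cyp3a, the Cyp3a KO against WT and the DKO against the Cyp27a1 KO had member medians of -0.068 and -0.26. On counts 54 of 78 (69.2%) were lower in both, 0 higher in both and 24 (30.8%) opposite, beside 29.1%, 28.8% and 42% of all genes. With TPM as deposited, 20 (25.6%) were lower in both, 14 (17.9%) higher in both and 44 opposite, beside 15.3% and 45.2% of all genes lower and higher in both. On recentred TPM 47 (60.3%) were lower and 1 higher in both, beside 28.4% of all genes each way. On counts Pearson's r over the members was -0.39, and -0.14 without Rps4l. For both losses the tally thus depended on whether TPM was recentred.

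Genes of the same pathway were set beside the members. The lists were chosen with earlier results of these data known. Of 7 measured ribosomal proteins whose symbols fall outside the rule, 6 lay below WT in the DKO, beside 51.6% of all genes. Their median log2 fold was -0.33 on counts. By the 1.5-fold rule 1 fell, Rps27rt, beside 10.5% of all genes. Rack1, a scaffold on the small subunit, had 270, 256, 270 and 297 CPM in the Cyp27a1 KO, Cyp3a KO, DKO and WT.

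The list of translation factors and other genes with TOP mRNAs had a median nearer 0 than the members. The 20 genes measured had a median log2 fold of -0.055 in the DKO against WT on counts and 0.075 on recentred TPM. On counts 13 lay below WT, beside 51.6% of all genes. By the 1.5-fold rule 1 rose and 1 fell, beside 13.6% and 10.5% of all genes. Hnrnpa1, a nuclear RNA-binding protein, rose, with 42.7 CPM in the DKO and 24.2 in WT. Nap1l1, a histone chaperone, fell, with 33.2 in the DKO and 58.8 in WT. The difference between this list and the members was not tested.

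Ribosome biogenesis genes, which make ribosomal RNA and assemble the subunits, had a median of -0.14 in the DKO against WT on counts. Of these 26 of 33 lay below WT, beside 51.6% of all genes. By the 1.5-fold rule 0 rose and 2 fell, beside 13.6% and 10.5% of all genes. These were Rrs1, a large subunit assembly factor, with 15.3 CPM in the DKO and 27.1 in WT, and Nolc1, a nucleolar chaperone, with 20.1 in the DKO and 34.3 in WT. The 78 measured mitochondrial ribosomal protein genes, which serve the separate ribosome of mitochondria, had a median of -0.051. Of these 47 lay below WT, beside 51.6% of all genes. By the 1.5-fold rule 1 rose and 2 fell, beside 13.6% and 10.5% of all genes. The summed level of the 78 genes was 1797, 1780, 1663 and 1735 CPM in the Cyp27a1 KO, Cyp3a KO, DKO and WT.

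Among 15 measured genes of a list of regulators, which includes the member Rps6 and the cell cycle gene Cdkn1a, the median was 0.038 in the DKO against WT. By the 2-fold rule 1 rose and 2 fell, beside 6% and 4.02% of all genes. Myc, a transcription factor that drives ribosome synthesis, had 30.4, 13.0, 35.0 and 9.74 CPM in the Cyp27a1 KO, Cyp3a KO, DKO and WT, a DKO ratio to WT of 3.59 (3.24 to 3.99). It was high in the Cyp27a1 KO and the DKO and low in the Cyp3a KO and WT. Cdkn1a, the cell cycle inhibitor p21, had 126, 25.8, 7.55 and 194 CPM, and Ddit4, an inhibitor of mTOR, had 142, 57.6, 77.1 and 176 CPM. Rps6, the member that S6 kinases phosphorylate, had 251, 241, 205 and 296 CPM and did not pass the rule.

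Markers of dividing and of other cells differed between the same libraries. Of 13 measured cell cycle genes 10 rose by the 2-fold rule in the DKO relative to WT, beside 6% of all genes, and the summed level of the list was 33.3, 38.9, 111 and 40.1 CPM in the Cyp27a1 KO, Cyp3a KO, DKO and WT. Cdc20, an activator of mitotic exit, had 7.18 CPM in the DKO and 0.279 in WT. Of 12 measured markers of Kupffer cells, the liver's resident macrophages, 0 lay below WT in the DKO, with a median log2 fold of 0.622. By the 1.5-fold rule 7 rose and by the 2-fold rule 2, beside 13.6% and 6% of all genes. The list summed to 376, 238, 543 and 353 CPM in the Cyp27a1 KO, Cyp3a KO, DKO and WT. Hepatocyte markers summed to 58229, 63158, 83239 and 99714 CPM. Of these, 2 of 6 fell by the 2-fold rule in the DKO relative to WT, beside 4.02% of all genes. Erythroid markers summed to 448, 286, 280 and 608 CPM in the same order. Of these, 4 of 5 measured fell by the 2-fold rule in the DKO relative to WT, beside the same 4.02%. In that order endothelial markers summed to 264, 252, 280 and 313 CPM, stellate cell markers to 204, 262, 199 and 248, and cholangiocyte markers to 31.3, 42.5, 37.4 and 43.2. The 8 markers of T and NK cells summed to at most 2.72 CPM and the 5 of neutrophils to at most 0.499, with 2 of these, Ly6g and Mpo, at 0 in every library. The 5 B cell markers summed to 15.7, 10.3, 14.3 and 6.16 CPM.

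Whether the cell make-up of these livers plays a part in the members' levels was not tested. In RNA of a whole tissue, fewer cells of a type and less RNA per cell cannot be told apart.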

How the data were processed

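Members and lists were chosen with earlier results of these data known. Per the labels' protocols, liver RNA of 1 mouse per genotype was sequenced after preparation with Illumina's TruSeq kit. Tools listed, without roles, in the submitters' processing notes are HISAT2 2.0.5, kallisto 0.43.1 and Trimmomatic 0.33, with build mm10. The sources used here do not say which of them gave the values, nor the annotation. The authors deposited a table of estimated counts by gene symbol, 57.7% of them whole numbers, which were rounded here, and a table of TPM, the deposited values of which were used unrounded. 1 row naming no gene held 0 counts and was dropped.

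TMM factors (edgeR 4.0.16, R 4.3.3), by which counts were scaled, were 0.996, 0.994, 1.08 and 0.937 in the Cyp27a1 KO, Cyp3a KO, DKO and WT. Log2 folds are of CPM or TPM plus 0.5, which understates those of low genes. Intervals of count ratios are exact (Clopper-Pearson, conditional binomial). They cover counting error only, since reads lacking molecular identifiers may be copies. Totals per library, given in the report, left each member with at least 199 counts.

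Called genes passed 1.5-fold (or 2-fold), a mean CPM of at least 1 and an interval excluding 1. With 1 library per genotype no test was run. The calculation was tested on simulated data. Named genes are P stalk genes, Rpsa and paralogs, the 8 highest by TPM and 5 lowest by CPM, the 5 highest and 5 lowest folds and the 6 largest gaps between the tables in each comparison with WT, and those past 2-fold, of which some are not reported here. Rpl10, Rps12, Rpl27a and Rps6 are otherwise described for their near copies, their call or their list, chosen after their values were seen. In other lists, those past 2-fold are named, and further ones were chosen after their values were seen. Transcripts were those of GENCODE release M21 with the longest coding part, and promoters came from RefSeq. Alternatives were other scalings, TPM, filters, pseudocounts, no interval, reduced totals and, chosen after seeing the data, near copies added and Rps4l left out. DESeq2 1.42.0 gave the median-of-ratios factors. Computation used Python 3.11.15 with pandas 2.3.3, numpy 2.4.6 and scipy 1.17.1.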

Additional observations from a re-analysis of the deposited data

Results flagged for a closer look

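Rps4l, the transcribed pseudogene copy of Rps4x, had log2 folds of opposite sign for loss of Cyp3a on the 2 backgrounds. The Cyp3a KO had 16.5 CPM against 11.2 CPM in WT, a log2 fold of 0.538 that did not pass the 1.5-fold rule. The DKO had 3.67 CPM against 12.1 CPM in the Cyp27a1 KO, a log2 fold of -1.597. These pairs have no library in common. The difference between them was not tested, since each rests on 2 libraries. Only members that differed at least 1.25-fold in both pairs with opposite signs were listed, and of the 78 members Rps4l alone met that (1.28%), beside 4.22% of all genes. Opposite signs of any size were found in 24 members (30.8%), beside 42% of all genes.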

How the results depend on the processing

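Medians and counts of calls were recomputed under the alternatives that apply to them, and shares and gaps between the tables under 1 each. Of 263 recalculations, 205 stayed on the same side and within the counting error or within 1.5 times a count. A further 52 moved and 6 changed sign. The 8 shares and 5 gaps could not be tallied as unchanged. A count of calls that was 0 under both settings was tallied as unchanged, so the tally is no measure of how stable the results are. Median log2 folds of the members are given in the order Cyp27a1 KO against WT, Cyp3a KO against WT, DKO against WT, DKO against Cyp3a KO and DKO against Cyp27a1 KO, and were -0.014, -0.068, -0.309, -0.246 and -0.261. With library totals they were 0.074, 0.016, -0.109, -0.13 and -0.148, so that the first 2 changed sign. With TPM as deposited they were 0.162, 0.004, 0.074, 0.086 and -0.055, so that the first 4 changed sign. With recentred TPM they were -0.005, -0.081, -0.249, -0.148 and -0.217. Median-of-ratios factors gave -0.008, -0.292, -0.232 and -0.25 for all but the Cyp3a KO against WT. No filter gave -0.062, -0.297, -0.22 and -0.23, and near copies added gave -0.061, -0.288, -0.191 and -0.245, for all but the Cyp27a1 KO against WT. In the DKO against WT a pseudocount of 2 gave -0.303, and leaving out Rps4l gave -0.301 there and -0.246 in the DKO against Cyp27a1 KO. Members that fell by the 1.5-fold rule numbered 1 in each DKO comparison with library totals or TPM as deposited, where 1 rose in the Cyp3a KO against WT and in the DKO against Cyp3a KO. With recentred TPM 5 fell in the DKO against WT and 3 in the DKO against Cyp27a1 KO. In the DKO against Cyp3a KO 3 fell with median-of-ratios factors and with a pseudocount of 2, and in the DKO against Cyp27a1 KO 3 fell with near copies added. The counts of 2-fold calls were the same wherever recomputed, which leaving out Rps4l, the only member called, was not. Shares on reduced totals were 1.595%, 1.536%, 1.43% and 1.609% of counts and 4.579%, 4.368%, 4.182% and 4.487% of TPM in the Cyp27a1 KO, Cyp3a KO, DKO and WT. The median gap between the tables, recentred, was -0.005, -0.003, -0.016, -0.015 and -0.011. The cause of these moves was not tested, and which scaling is nearer to RNA per cell cannot be told from these tables. No paired analysis was possible because each genotype has 1 library, and for the same reason no library could be left out.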
